A study of Homo sapiens with 24 samples.

Results

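A set of 9 genes was followed in human embryonic stem cells of the H9 line, through 24 RNA-seq libraries: CLK1, CLK4, RBM3, CIRBP, LRIG2, H6PD, ZNF721, NEDD9 and CDC42EP2. They are 9 of the 28301 features in the deposited gene table. CLK1, RBM3, LRIG2, H6PD, ZNF721, NEDD9 and CDC42EP2 (7 genes) were selected on their difference between illuminated and dark wild-type monocultures, and CLK4 and CIRBP (2 genes) were added as relatives of CLK1 and RBM3. Wild-type monoculture values therefore chose the genes and are given as a description, with no test. The other 3 populations did not enter the choice and were tested. The Cry2 fit shared its estimate of spread with the wt monocultures, so its p-values are not fully independent of the choice.

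The study switched on Wnt signalling with light in cells carrying a Cry2 construct, in which a plant photoreceptor clusters a Wnt co-receptor, and compared them with wild-type cells. Engineered (Cry2) and wild-type (wt) monocultures stayed in the dark or received light of 0.8 µW/mm² for 48 h. By the authors' sample table the engineered cells overexpress Cry2-LRP6c-2A-mCherry with a puromycin resistance gene, and the wild-type cells, which are therefore not unmodified, overexpress eGFP with a neomycin resistance gene. Co-cultures of engineered and wild-type cells went through the same dark or light conditions and were then sorted into mCherry-positive engineered cells (mCh) and GFP-positive wild-type cells (GFP). All 8 groups grew in the same E8 medium, and each had 3 biological replicates, each pooled from 2 to 3 wells. The labels do not say that replicates came from separate cultures, so the p-values measure the spread between these samples, which may in part be technical. No source used here gives the culture temperature during illumination.

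CLK1 and CLK4 are dual-specificity kinases that phosphorylate SR proteins, the serine- and arginine-rich regulators of splicing. Part of the RNA of each is known to stay in the nucleus with retained introns, which gene-level counts do not separate from mature mRNA. RBM3 and CIRBP are small RNA-binding proteins with a single RNA recognition motif, best known for rising when mammalian cells are cooled mildly and falling when they are warmed. The remaining genes have unrelated roles: LRIG2 is a transmembrane modulator of growth factor receptors, H6PD is the hexose-6-phosphate dehydrogenase of the endoplasmic reticulum, and ZNF721 is a zinc finger protein. NEDD9 is a scaffold of the CAS family at focal adhesions, and CDC42EP2 is an effector of the small GTPase CDC42.

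The 2 related pairs are shown by the 250 bases before a RefSeq transcription start (GRCh38.p14), because the members of each pair are relatives whose values are compared throughout. Capitals mark the GC box GGGCGG on either strand in CLK1, CLK4 and CIRBP, and in RBM3 the sequence TTCNNGAA, a tail-to-tail pair of heat shock element units. The windows are chr2:200864659-200864908 on the minus strand for CLK1, chr5:178627051-178627300 on the minus strand for CLK4, chrX:48574234-48574483 on the plus strand for RBM3 and chr19:1269082-1269331 on the plus strand for CIRBP.
CLK1: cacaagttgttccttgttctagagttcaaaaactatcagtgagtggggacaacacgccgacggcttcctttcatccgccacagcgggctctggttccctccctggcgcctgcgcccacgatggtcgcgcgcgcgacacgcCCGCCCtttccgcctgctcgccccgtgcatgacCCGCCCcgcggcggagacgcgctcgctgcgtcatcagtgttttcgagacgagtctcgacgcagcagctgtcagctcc
CLK4: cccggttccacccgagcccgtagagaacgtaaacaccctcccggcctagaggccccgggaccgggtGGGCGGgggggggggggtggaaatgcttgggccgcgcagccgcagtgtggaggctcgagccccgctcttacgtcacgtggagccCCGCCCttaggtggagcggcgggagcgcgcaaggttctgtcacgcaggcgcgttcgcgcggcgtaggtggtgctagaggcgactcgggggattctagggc
RBM3: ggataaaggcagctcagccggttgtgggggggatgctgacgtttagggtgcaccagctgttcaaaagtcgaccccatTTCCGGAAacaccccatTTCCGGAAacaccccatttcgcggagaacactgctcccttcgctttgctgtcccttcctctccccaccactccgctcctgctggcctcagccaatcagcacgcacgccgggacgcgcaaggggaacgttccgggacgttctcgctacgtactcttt
CIRBP: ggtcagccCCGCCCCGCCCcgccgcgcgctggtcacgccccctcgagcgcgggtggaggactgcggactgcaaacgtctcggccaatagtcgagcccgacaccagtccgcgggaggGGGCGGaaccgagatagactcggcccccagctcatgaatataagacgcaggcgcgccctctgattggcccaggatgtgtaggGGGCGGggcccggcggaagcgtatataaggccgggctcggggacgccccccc

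RefSeq promoter windows of 300 bases were found for 8 of the 9 genes. Both strands were searched for 4 motifs, chosen after the sequences had been seen. GGGCGG was found 4 times in CIRBP, 2 times in CLK1, 2 times in CLK4 and not in RBM3, and 45% of 35116 promoter windows held it. TTCNNGAA was found 2 times in RBM3, at positions -173 and -156 from the start, in none of the other members' windows, and in 7.74% of all windows. TCCCCGCC, known as the mild cold response element, was found in the window of CDC42EP2 (position -87) and in no window of RBM3 or CIRBP; 8.52% of all windows held it, and it can overlap a GC box. The E-box CACGTG was found in CLK4 (position -111) and in 7.26% of all windows. A match is a run of letters and was not tested as a binding site.

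The libraries held 28237578 to 56639833 assigned reads. Depth coincided with light in monoculture, where dark libraries held 28237578 to 34291124 reads and illuminated libraries 45763662 to 54707558, so the 2 cannot be told apart there. In co-culture, library c of each illuminated group was shallow (31807414 reads in mCh, 31884623 in GFP), and the other 10 libraries held at least 44162262. The authors' sample table gives wt dark replicate 1 a GC content of 33.73%, while the other 11 monocultures lay between 50.47% and 51.77%. Libraries mCh light a, mCh light c and wt light 2 stood furthest from the other 2 of their group, with a root-mean-square log2 distance of 0.46, 0.41 and 0.38, and values without them are given where they matter. The pluripotency markers POU5F1, SOX2, NANOG, DPPA4, TDGF1 and LIN28A summed to 223020 to 254879 in the 18 libraries of dark or wild-type cells. In illuminated engineered cells this sum was 65640 to 85093, while 6 streak and mesoderm markers summed to 118239 to 138661, against 169 to 249 in all dark libraries. The part of this marker shift in the engineered light effects below was not tested. Illuminated GFP cells grew beside these shifted engineered cells, so light and neighbours cannot be told apart in what is called their light effect.

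**Figure D1:**
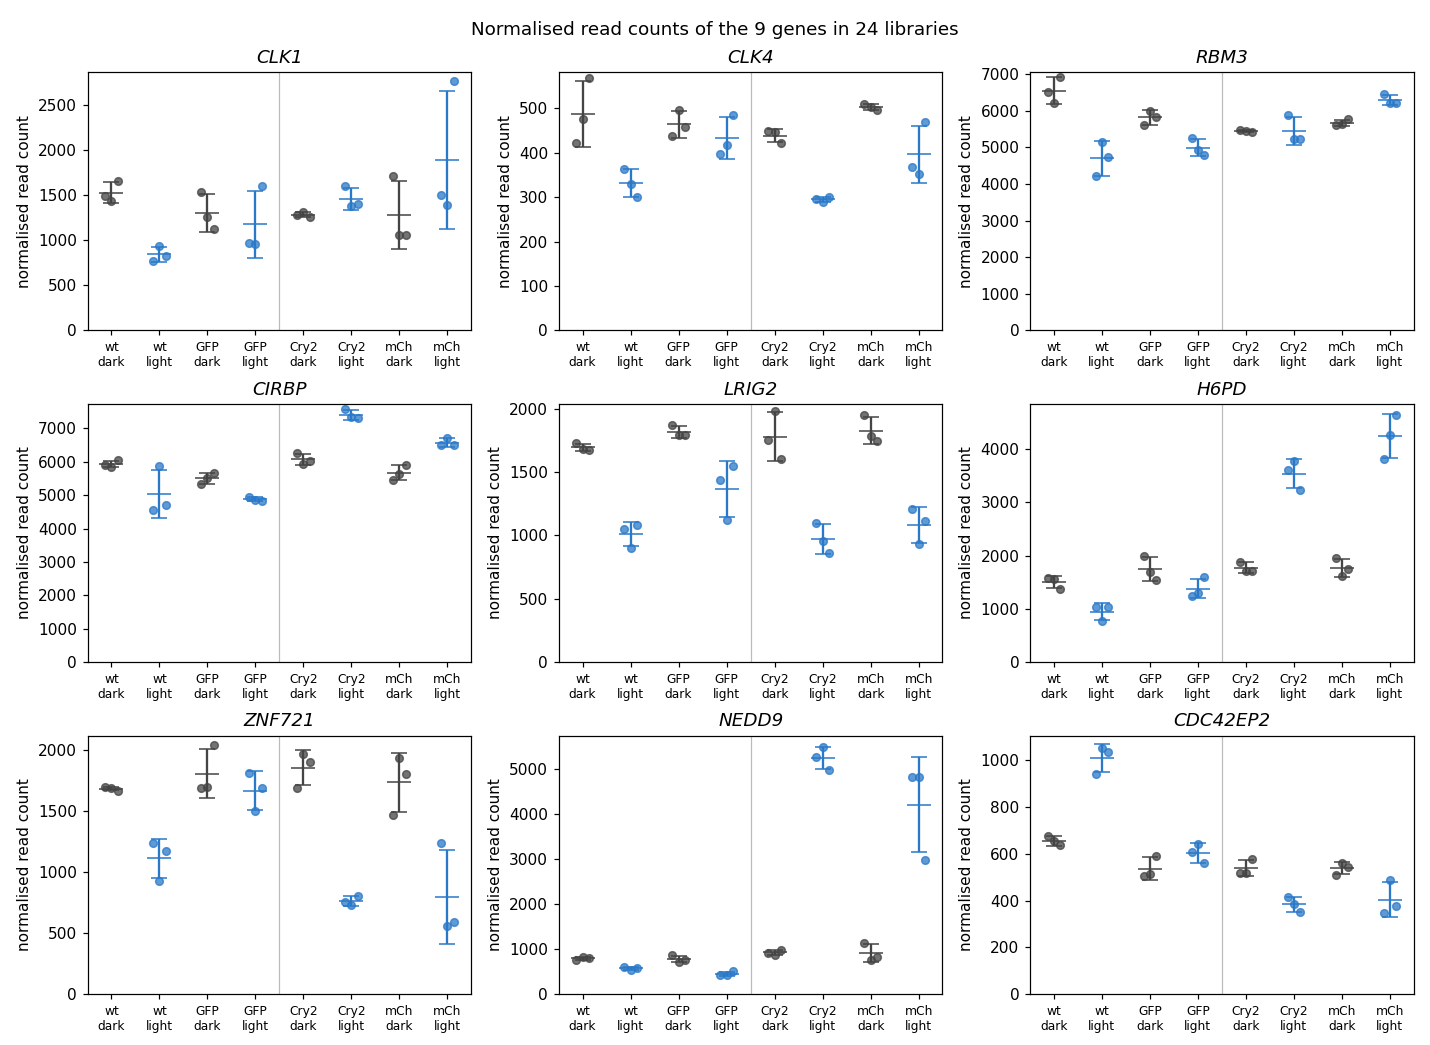
Normalised read count (linear axis from 0) of each of the 9 genes in 8 groups. Points are libraries, horizontal marks are group means and bars are ± SD (n = 3), with dark groups in grey and illuminated groups in blue. NEDD9 and H6PD stood highest in the 6 illuminated engineered libraries, and CDC42EP2 stood highest in the 3 illuminated wt libraries.

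The 2 kinases were lower in illuminated than in dark wt monocultures. CLK1 (ENSG00000013441; GRCh38 chromosome 2, 200853009 to 200864744, minus strand) read 1492, 1433 and 1659 normalised counts in the dark and 773, 934 and 827 under light. CLK4 (ENSG00000113240; chromosome 5, 178602664 to 178630615, minus strand) read 421, 475 and 568 in the dark and 364, 330 and 300 under light. The groups did not overlap for either gene. Group means were 1.81-fold lower under light for CLK1 and 1.47-fold lower for CLK4.

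In wild-type cells sorted from co-culture, neither kinase passed the test. CLK1 read 1533, 1262 and 1122 in the dark and 965, 963 and 1603 under light, the highest value being the shallow library c. Its log2 change was -0.18 ± 0.26 (SE; 95% interval -0.74 to 0.38; limma adjusted p = 0.812). In the wt monoculture it was -0.86 ± 0.09. Without both shallow illuminated libraries the GFP change was -0.43 (limma adjusted p = 0.267), and the 2 remaining light values lay below all 3 dark values. CLK4 read 437, 497 and 459 in the dark and 396, 417 and 486 under light, a log2 change of -0.10 ± 0.13 (95% interval -0.38 to 0.17; limma adjusted p = 0.776).

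In engineered cells CLK4 fell under light and CLK1 did not pass the test. CLK1 read 1282, 1318 and 1256 in dark and 1599, 1382 and 1402 in illuminated Cry2 monocultures. All 3 illuminated values were above the dark ones, but the log2 change of 0.18 ± 0.09 (95% interval -0.01 to 0.37) did not pass the test (limma adjusted p = 0.0936). CLK4 fell in the same libraries, from 448, 447 and 421 to 296, 288 and 300, which is 1.49-fold lower (log2 change -0.57 ± 0.12; limma adjusted p = 0.0009). Because these are bulk samples, fewer cells of a type and less RNA per cell cannot be told apart.

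Sorted mCh cells showed a wide spread in CLK1, with 1714, 1058 and 1058 in the dark and 1507, 1391 and 2769 under light. Its log2 change of 0.53 ± 0.26 did not pass the test (limma adjusted p = 0.1). The value of 2769 came from the shallow library c, and without that library the change was 0.22 (limma adjusted p = 0.447). Without mCh light a, in contrast, it was 0.66 (limma adjusted p = 0.0371). CLK4 fell from 510, 502 and 496 to 367, 353 and 470 (log2 change -0.35 ± 0.13; limma adjusted p = 0.0303), with no overlap, but it lost the call in most fits with 1 library left out. The adjusted p reached 0.116 over the alternatives. The light effect in mCh minus that in GFP cells did not pass for CLK1 (0.71 ± 0.37; limma adjusted p = 0.147), and it passed without GFP light c (0.96; limma adjusted p = 0.047). Libraries sorted from the same co-culture could not be paired in this fit, since no label says which they are.

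CLK2 and CLK3, the other kinases of the family, rose where CLK4 fell. CLK2 rose 1.45-fold in illuminated Cry2 cells (log2 change 0.54 ± 0.07; limma adjusted p = 4.13e-06) and 1.47-fold in mCh cells (limma adjusted p = 1.03e-05). CLK3 rose 1.47-fold and 1.41-fold in the same comparisons (limma adjusted p = 1.76e-05 and 0.000405). Of the 6 kinases tested, CLK1 and CLK4 included, 3 rose and 2 fell in Cry2 cells, where 58.4% of all genes passed, 2 rose and 2 fell in mCh cells, where 55.9% did, and none passed in GFP cells (limma, edgeR and DESeq2; 0 at an unadjusted limma p under 0.05). Their median log2 change was 0.21 in Cry2, 0.31 in mCh, -0.03 in GFP and -0.12 in wt cells, and the median over all genes was -0.01 in Cry2, GFP and mCh cells. In wt monocultures CLK2 (log2 change -0.06 ± 0.07) and CLK3 (0.03 ± 0.08) overlapped between dark and light.

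Of 14 SR splicing factors, the substrates of these kinases, 9 rose and 1 fell in illuminated Cry2 cells, and 7 rose and 1 fell in mCh cells, beside the same 58.4% and 55.9% of all genes. TRA2A, a splicing activator, rose 1.79-fold in Cry2 (limma adjusted p = 5.78e-08) and 1.43-fold in mCh cells (limma adjusted p = 0.000997). SRSF12 rose 1.81-fold and 1.75-fold (limma adjusted p = 3.5e-05 and 0.00062), and SRSF8 was 0.521 and 0.481 of its dark level (limma adjusted p = 5.18e-08 and 6.16e-08). None of the 14 passed in GFP cells with limma, edgeR or DESeq2 (2 at an unadjusted limma p under 0.05), where the median was 0.08, and in the wt monoculture the median was also 0.08.

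RBM3 and CIRBP, the cold-inducible pair, both had lower means under light in wt monocultures. RBM3 (ENSG00000102317; chromosome X, 48574449 to 48579066, plus strand) read 6507, 6202 and 6924 in dark and 4206, 5142 and 4746 in illuminated wt monocultures, 1.39-fold lower with no overlap. CIRBP (ENSG00000099622; chromosome 19, 1259384 to 1274880, plus strand) read 5914, 5860 and 6041 in the dark and 4557, 5876 and 4706 under light. Its groups overlapped through wt light 2 alone. The log2 change of CIRBP was -0.24 ± 0.08, and it was -0.36 without that library.

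GFP cells gave smaller differences of the same sign. RBM3 read 5615, 6003 and 5825 in the dark and 5247, 4937 and 4799 under light, a log2 change of -0.22 ± 0.07 (95% interval -0.36 to -0.08) that missed the threshold (limma adjusted p = 0.0769). CIRBP read 5334, 5515 and 5655 in the dark and 4947, 4864 and 4838 under light, a log2 change of -0.17 ± 0.06 (95% interval -0.31 to -0.03; limma adjusted p = 0.173). Neither gene's groups overlapped. The direction was the same without both shallow libraries, where the changes were -0.19 and -0.17, with limma adjusted p = 0.225 and 0.315. DESeq2 on recovered reads called RBM3 (adjusted p = 0.0209).

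Neither gene fell under light in engineered cells. RBM3 read 5460, 5438 and 5413 in dark and 5892, 5216 and 5220 in illuminated Cry2 cells, a change of 0.1% in the means (log2 95% interval -0.16 to 0.16; limma adjusted p = 0.994). CIRBP rose from 6270, 5941 and 6024 to 7578, 7328 and 7320, which is 1.22-fold higher (log2 change 0.29 ± 0.08; limma adjusted p = 0.0051). These 3 were the highest CIRBP values of all 24 libraries. In mCh cells CIRBP rose from 5458, 5643 and 5916 to 6513, 6720 and 6494 (log2 change 0.21 ± 0.06; limma adjusted p = 0.0102), and fitted on those 2 groups alone it missed the threshold (adjusted p = 0.0547). RBM3 read 5598, 5628 and 5762 in dark and 6462, 6198 and 6223 in illuminated mCh cells, without overlap and without a call (log2 change 0.15 ± 0.07; limma adjusted p = 0.0603).

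The light effect on this pair differed between the 2 populations that shared a co-culture. The effect in mCh minus that in GFP cells was 0.37 ± 0.09 on the log2 scale for RBM3 (95% interval 0.17 to 0.57; limma adjusted p = 0.00455) and 0.39 ± 0.09 for CIRBP (95% interval 0.19 to 0.58; limma adjusted p = 0.00305). Both stayed past the threshold in all 21 alternative fits, with adjusted p of at most 0.019 and 0.0114. In this comparison 6 of the 9 genes passed, against 40.5% of all genes tested (19.5% higher and 21.0% lower in mCh cells).

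**Figure D2:**
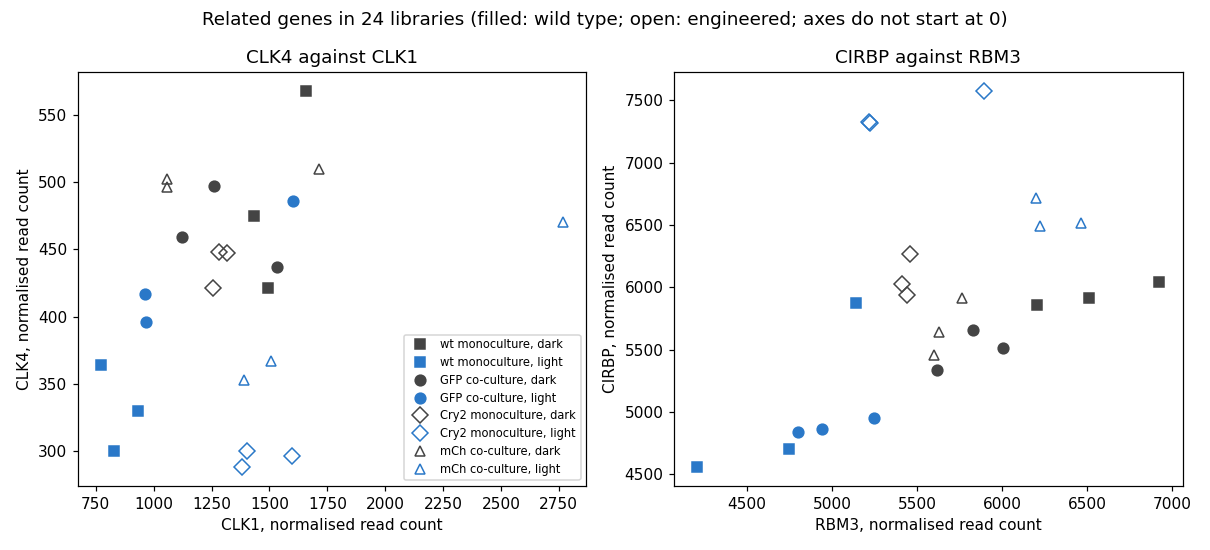
CLK4 against CLK1 (left) and CIRBP against RBM3 (right) as normalised read counts in 24 libraries, on axes that do not start at 0. Filled symbols are wild-type cells, open symbols engineered cells, grey dark and blue light; the illuminated engineered libraries lie below the others in CLK4 for their CLK1 level and above them in CIRBP for their RBM3 level, apart from the mCh light c library in CLK4.

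Across libraries, likeness of pattern was given by Pearson's r as a description. Libraries of a group share treatment, culture and in part depth. The wt monocultures among them also chose RBM3 and CLK1, so these r values are not independent of that choice. Over the 12 wild-type libraries CIRBP was the fourth most like gene to RBM3 (r = 0.882, rank 4 of 14416 genes), after VSTM5 (0.915), PRORSD1P (0.898) and MSX2P1 (0.884). For CIRBP the most like were MSX2P1 (0.925), IGSF11 (0.894) and RBM3. CLK4 stood at rank 18 for CLK1 (r = 0.810), behind BET1L (0.886), ZNF212 (0.884) and ADAMTS2 (0.873).
Over all 24 libraries the order changed. CIRBP was at rank 43 of 14429 for RBM3 (r = 0.524), whose closest were LIN52 (0.727), VSTM5 (0.725) and C22orf39 (0.705), while the closest to CIRBP were CYB5R2 (0.907), TSPYL2 (0.890) and ABHD14B (0.881). CLK4 was at rank 5045 for CLK1 (r = 0.274), whose closest were WBP11 (0.805), ZNF212 (0.780) and BET1L (0.780).

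Per kilobase of annotated exon, RBM3 had the highest mean of the 9 genes, 1504 over the 24 libraries, then CIRBP at 925, and CLK4 had the lowest at 52.8. The length is that of all exons of all annotated transcripts (3731 bases for RBM3, 6368 for CIRBP), so this order depends on the annotation. Undivided counts did not keep it: CIRBP was above RBM3 in Cry2 light (7409 against 5443) and below it in wt dark (5938 against 6544). On the same scale CLK1 stood at 260, CDC42EP2 at 263, H6PD at 227, ZNF721 at 223, NEDD9 at 168 and LRIG2 at 116. RBM3 overlaps an antisense gene, AC115618.1 (mean 10.9 normalised counts), and CIRBP overlaps CIRBP-AS1 (mean 18); no source used here says whether reads were assigned by strand, so those of such partners cannot be told apart. In the order of the 8 group means, 3 (NEDD9) to 7 (CLK4) of the 7 neighbouring pairs had overlapping ranges. The order of RBM3 ran from wt dark (6544 ± 362, SD) and mCh light (6294 ± 146) down to GFP light (4995 ± 229) and wt light (4698 ± 470), and both ends overlapped within themselves. CIRBP ran from Cry2 light (7409 ± 147) and mCh light (6576 ± 125), which did not overlap each other or the next group, down to wt light (5046 ± 722) and GFP light (4883 ± 57), which overlapped. CLK1 was lowest in wt light (845 ± 81.7), below the range of every other group, while the other 7 groups formed one chain of overlapping ranges from mCh light (1889 ± 764) down to GFP light (1177 ± 369).

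Genes of the cold shock domain family, which are unrelated in sequence to RBM3 and CIRBP, were read beside them. Of 7, 1 rose and 4 fell in Cry2 cells and 1 rose and 3 fell in mCh cells, led by LIN28A, a pluripotency-linked RNA-binding protein (0.494 and 0.529 of its dark level; limma adjusted p = 2.33e-10 and 4.86e-06). LIN28B rose 1.64-fold and 1.54-fold (limma adjusted p = 3.73e-06 and 0.00129). Of all genes 58.4% passed in Cry2 and 55.9% in mCh cells. None passed in GFP cells with limma, edgeR or DESeq2 (0 at an unadjusted limma p under 0.05; median 0.02), and the median in wt cells was -0.02.

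Heat shock genes were also read beside the pair, with HSPA1A and HSPA1B uncertain because their sequences are nearly identical. In wt monocultures 14 of 16 were higher under light, with a median log2 change of 0.28, and 9478 of all 19444 genes were. Their summed level there was 503634 to 533364 in the dark and 549452 to 583004 under light. In GFP cells 12 of 16 were higher (median 0.12), as were 9381 of all 19436 genes, and 2 passed: HSPA8, the constitutive HSP70, rose 1.47-fold (log2 change 0.56 ± 0.10; limma adjusted p = 0.00294), and its cochaperone DNAJA1 rose 1.31-fold (limma adjusted p = 0.00802). The summed level in GFP cells was 468896 to 494506 in the dark and 484658 to 535401 under light, with overlap.
In Cry2 cells 5 of the 16 rose and 5 fell (median 0.05), and in mCh cells 8 rose and 5 fell (median 0.21). The summed level was lower under light in both, without overlap. In Cry2 cells it was 484087 to 503000 in the dark and 407655 to 443554 under light. In mCh cells it was 480234 to 507137 in the dark and 424664 to 464527 under light. The share of all genes passing was 58.4% in Cry2, 55.9% in mCh and 4.60% in GFP cells. DNAJB1 rose 1.58-fold in Cry2 (limma adjusted p = 3.97e-07) and 1.78-fold in mCh cells (limma adjusted p = 2.88e-06), and HSPA4L was 0.199 and 0.122 of its dark level (limma adjusted p = 1.11e-08 and 2.73e-08). The part of these genes in the shifts of RBM3 and CIRBP was not tested.

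**Figure D3:**
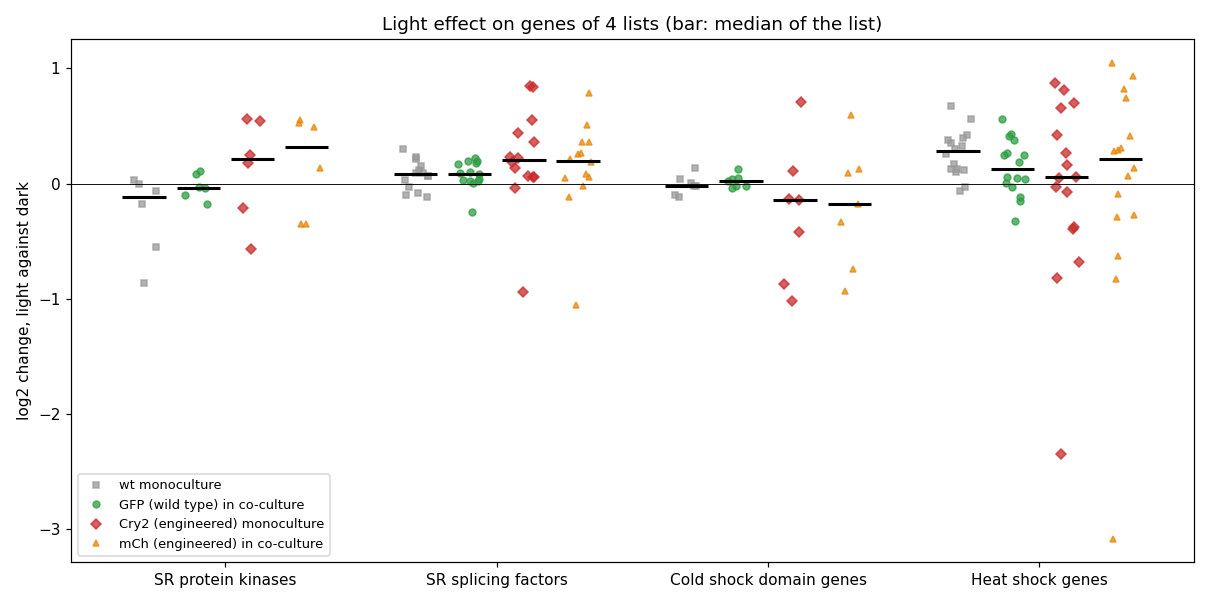
Log2 change between light and dark (vertical axis) of single genes in 4 lists, by population; points are genes and black bars are list medians. The medians of the heat shock genes lie above 0 in all 4 populations, from 0.05 in Cry2 to 0.28 in wt cells, and the splicing factor medians from 0.08 to 0.20. The summed heat shock level, not drawn here, was lower under light in Cry2 and mCh cells.

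Of the other 5 genes, LRIG2 and ZNF721 fell in both engineered populations, H6PD and NEDD9 rose and CDC42EP2 fell; in GFP cells only NEDD9 passed. Counting the kinases and the cold-inducible pair too, 8 of 9 genes did not overlap between light and dark in wt monocultures, as 17.8% of all genes did not, and 0.0720% of all genes passed the limma threshold (0.0309% higher, 0.0411% lower); that contrast chose the genes, so nothing is read from the count. In Cry2 cells 3 genes rose and 4 fell, where 58.4% of all genes passed (28.1% rose, 30.4% fell). In mCh cells 3 rose and 4 fell, where 55.9% passed (27.2% rose, 28.7% fell). With more than 1 in 2 genes passing there, the count of 7 of 9 is no mark of these genes. In GFP cells 1 of the 9 passed with limma (5 at an unadjusted p under 0.05), where 4.60% of all genes did (2.39% rose, 2.21% fell); edgeR called 1 and DESeq2 3.

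LRIG2 (ENSG00000198799; chromosome 1, 113073209 to 113132260, plus strand) read 1728, 1683 and 1674 in dark and 1047, 901 and 1085 in illuminated wt monocultures. It fell in Cry2 cells from 1750, 1982 and 1601 to 1097, 952 and 861 (1.83-fold lower; log2 change -0.88 ± 0.10; limma adjusted p = 2.6e-06). It fell in mCh cells from 1946, 1787 and 1747 to 1209, 932 and 1111 (1.69-fold lower; log2 change -0.76 ± 0.12; limma adjusted p = 7.05e-05). Illuminated and dark libraries did not overlap in any of these comparisons.
GFP cells gave 1873, 1788 and 1788 in the dark and 1435, 1119 and 1548 under light, again without overlap. The log2 change of -0.42 ± 0.12 (95% interval -0.68 to -0.16) missed the threshold (limma adjusted p = 0.0639). It passed without both shallow libraries (log2 change -0.52; limma adjusted p = 0.0343) and with DESeq2 (adjusted p = 0.0254), and it was weakest without GFP light b (-0.28; limma adjusted p = 0.275). The light effect in mCh minus that in GFP cells, -0.34 ± 0.17 (95% interval -0.70 to 0.03), did not pass (limma adjusted p = 0.134), and it passed without mCh light a (-0.42; limma adjusted p = 0.0356) and without GFP light b (-0.48; limma adjusted p = 0.0242).

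LRIG1, the paralog of LRIG2 that restrains ERBB receptors, fell in GFP cells to 0.359 of its dark level, from 9615 ± 749 to 3453 ± 110 (SD, n = 3; limma adjusted p = 4.48e-08), and was the only one of 8 family and receptor genes to pass there. In wt monocultures LRIG1 read 9864 ± 126 in the dark and 8777 ± 607 under light. It fell in Cry2 cells to 0.285 (limma adjusted p = 2.29e-12) and in mCh cells to 0.325 (limma adjusted p = 4.89e-11). LRIG3 rose 5.23-fold in Cry2 (limma adjusted p = 5.87e-11) and 5.97-fold in mCh cells (limma adjusted p = 9.72e-11). Both engineered populations had 3 of the 8 up and 4 down, with medians of -0.44 and -0.48. The share of all genes passing was 58.4% in Cry2, 55.9% in mCh and 4.60% in GFP cells.

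ZNF721 (ENSG00000182903; chromosome 4, 425815 to 499156, minus strand) lies among related zinc finger genes and overlaps ABCA11P, so its reads are uncertain. It read 1694, 1693 and 1667 in dark and 1236, 926 and 1172 in illuminated wt monocultures, a log2 change of -0.61 that was -0.48 without wt light 2, the lowest library. It fell in Cry2 cells from 1692, 1971 and 1903 to 756, 728 and 807 (2.43-fold lower; log2 change -1.28 ± 0.10; limma adjusted p = 2.41e-08). It fell in mCh cells from 1464, 1939 and 1803 to 1240, 560 and 588 (log2 change -1.21 ± 0.23; limma adjusted p = 0.000318). The value of 1240 came from mCh light a. Without that library the change was -1.59, and ZNF721 stayed past the threshold.
In GFP cells ZNF721 read 1689, 1696 and 2038 in the dark and 1816, 1501 and 1688 under light, with overlap (log2 change -0.11 ± 0.23; limma adjusted p = 0.875). Its light effect was more negative in mCh than in GFP cells, by -1.10 ± 0.32 (limma adjusted p = 0.0126). Of 7 neighbours on the short arm of chromosome 4, 2 rose and 2 fell in Cry2 cells and 2 rose and 4 fell in mCh cells. Of all genes 58.4% and 55.9% passed there. ZNF732 was 0.503 and 0.471 of its dark level (limma adjusted p = 2.83e-06 and 1.37e-05), while PIGG rose 1.40-fold and 1.27-fold (limma adjusted p = 0.000225 and 0.00428). None of the 7 passed in GFP cells with limma, edgeR or DESeq2 (0 at an unadjusted limma p under 0.05).

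**Figure D4:**
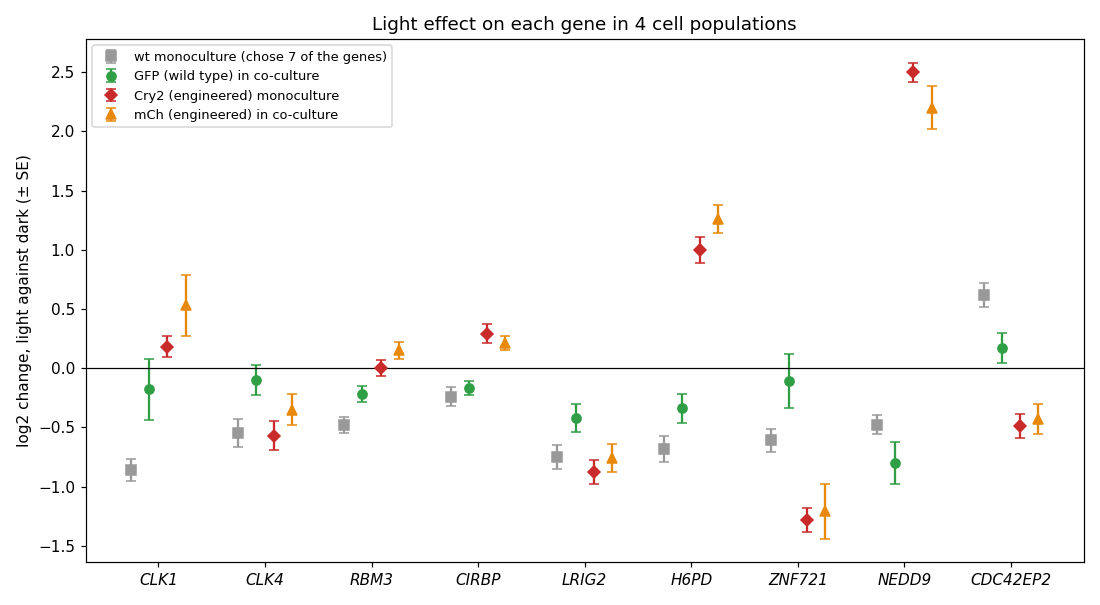
Log2 change between light and dark (vertical axis, ± SE) of the 9 genes in wt monoculture, GFP co-culture, Cry2 monoculture and mCh co-culture cells. In H6PD and NEDD9 the engineered populations lie above 0 and the wild-type populations below, and CDC42EP2 shows the reverse.

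H6PD (ENSG00000049239; chromosome 1, 9234775 to 9271337, plus strand) makes NADPH inside the endoplasmic reticulum. It read 1582, 1562 and 1379 in dark and 1032, 767 and 1041 in illuminated wt monocultures, a log2 change of -0.68 that was -0.54 without wt light 2, the lowest library. In Cry2 cells it rose from 1888, 1708 and 1714 to 3600, 3766 and 3233, 2.00-fold (log2 change 1.00 ± 0.11; limma adjusted p = 1.16e-06). In mCh cells it rose from 1947, 1616 and 1739 to 3814, 4259 and 4644, 2.40-fold (log2 change 1.26 ± 0.12; limma adjusted p = 3.33e-07).
Illuminated engineered libraries thus stood above every other library. GFP cells read 2001, 1701 and 1545 in the dark and 1251, 1306 and 1590 under light, with overlap through library c (log2 change -0.34 ± 0.12; 95% interval -0.59 to -0.08; limma adjusted p = 0.145). Without both shallow libraries the change was -0.44 (limma adjusted p = 0.0507). The effect in mCh minus that in GFP cells was 1.60 ± 0.17 (limma adjusted p = 2.13e-06).

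Enzymes of the cytosolic pentose phosphate pathway moved in both directions. Of 7, 3 rose and 4 fell in Cry2 cells and 3 rose and 3 fell in mCh cells. Of all genes 58.4% and 55.9% passed there. Transketolase, TKT, an enzyme of its non-oxidative branch, was 0.415 and 0.468 of its dark level (limma adjusted p = 8.98e-11 and 4.03e-06). None passed in GFP cells with limma, edgeR or DESeq2 (0 at an unadjusted limma p under 0.05; median 0.02).

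NEDD9 (ENSG00000111859; chromosome 6, 11183298 to 11382348, minus strand) had the largest light effect of the 9 genes in engineered cells. It read 766, 818 and 802 in dark and 598, 539 and 576 in illuminated wt monocultures. In Cry2 cells it rose from 924, 865 and 987 to 5268, 5488 and 4994, 5.67-fold (log2 change 2.50 ± 0.08; limma adjusted p = 3.69e-13). In mCh cells it rose from 1147, 755 and 830 to 4829, 4834 and 2990, 4.63-fold (log2 change 2.20 ± 0.18; limma adjusted p = 8.44e-08).
The lowest illuminated value, 2990, came from the shallow library c. GFP cells went the other way, from 863, 717 and 754 in the dark to 422, 413 and 508 under light, 1.74-fold lower (log2 change -0.80 ± 0.18; limma adjusted p = 0.0212). NEDD9 was the only one of the 9 genes called in GFP cells, and the call was lost when GFP light a, GFP light b or any single GFP dark library was left out (adjusted p 0.0548 to 0.0981, log2 change -0.86 to -0.72). It was kept without both shallow libraries (-0.89; limma adjusted p = 0.00284). The difference between mCh and GFP effects was 3.00 ± 0.26 (limma adjusted p = 2.6e-07).

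Illuminated GFP cells also held more RNA of streak markers than dark GFP cells. Of the 6 markers 3 rose, TBXT (119 ± 14.2 against 4.57 ± 2.42, SD, n = 3), MIXL1 (157 ± 14.0 against 48.2 ± 2.34) and EOMES (244 ± 32.8 against 5.95 ± 2.05), and the sum of the 6 was 653 to 711 against 206 to 249. In wt monocultures that sum was 174 to 198 under light and 169 to 213 in the dark. MSGN1, at 10861 ± 1268 in illuminated mCh cells, stood at 1.40 ± 1.35 in illuminated GFP cells. The part of these markers in the light effects of GFP cells was not tested.

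Among the CAS family and its partners, 5 of 8 rose and 1 fell in Cry2 cells, and 4 rose and 1 fell in mCh cells. The share of all genes passing was 58.4% in Cry2, 55.9% in mCh and 4.60% in GFP cells. EFS, another CAS scaffold, rose 3.18-fold and 3.28-fold (limma adjusted p = 7.7e-12 and 2.69e-10), and BCAR1, the founding member, was 0.480 and 0.561 of its dark level (limma adjusted p = 1.26e-09 and 0.000139). The kinase SRC rose 1.72-fold and 1.92-fold (limma adjusted p = 9.06e-08 and 3.29e-06). In GFP cells PTK2B alone passed, at 0.592 of its dark level (limma adjusted p = 0.0102). It read 287 ± 10.6 in dark and 237 ± 32.9 in illuminated wt monocultures.

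CDC42EP2 (ENSG00000149798; chromosome 11, 65314818 to 65322429, plus strand) was the one gene of the 9 that was higher under light in wt monocultures. Its reads are uncertain, because it lies within AP000944.2, a protein-coding gene annotated on the same strand, which has no deposited values. CDC42EP2 read 678, 653 and 636 in the dark and 942, 1051 and 1037 under light. In Cry2 cells it fell from 520, 517 and 579 to 416, 387 and 350 (1.40-fold lower; log2 change -0.49 ± 0.10; limma adjusted p = 0.000419). In mCh cells it fell from 511, 562 and 542 to 345, 488 and 376 (1.34-fold lower; log2 change -0.43 ± 0.13; limma adjusted p = 0.0118).
GFP cells read 505, 514 and 592 in the dark and 609, 644 and 559 under light, with overlap (log2 change 0.17 ± 0.13; 95% interval -0.11 to 0.45; limma adjusted p = 0.588). In the wt monoculture it was 0.62 ± 0.10. The effect in mCh minus that in GFP cells was -0.60 ± 0.19 (limma adjusted p = 0.0178). Of 7 other genes of CDC42 and its effectors, 4 rose and 2 fell in Cry2 cells and 4 rose and 1 fell in mCh cells: CDC42EP4 rose 4.12-fold and 4.91-fold (limma adjusted p = 1.55e-12 and 7.72e-09), and CDC42EP3 was 0.175 and 0.180 of its dark level (limma adjusted p = 1.17e-13 and 2.45e-11). In GFP cells CDC42SE1 alone passed, rising 1.28-fold (limma adjusted p = 0.0112). It read 4591 ± 83.9 in dark and 4612 ± 442 in illuminated wt monocultures. The share of all genes passing was 58.4% in Cry2, 55.9% in mCh and 4.60% in GFP cells.

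The sign of the light effect in GFP cells was that of wt monocultures for all 9 genes and for 54.3% of all genes, in comparisons that share no library. Of all genes 0.0720% were called in wt monocultures, while 7 of the 9 were chosen there. The 54.3% is therefore no like background. Nor are the 9 signs separate, since members moved together to differing degrees. Over the 12 wild-type libraries r was 0.923 for H6PD with LRIG2 and 0.309 for ZNF721 with NEDD9. Several GFP effects were near 0 with overlapping groups, such as those of CLK4 (-0.10) and ZNF721 (-0.11). In GFP cells 8 of the 9 effects missed the threshold, 4 genes did not overlap between light and dark (RBM3, CIRBP, LRIG2 and NEDD9), as 24.8% of all genes did not, and the median was -0.18 against -0.01 over all genes. The difference between the 2 cultures was not tested, since the wt values chose the genes. In GFP cells light cannot be told apart from the shifted engineered neighbours, which wt monocultures did not have.

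In dark co-cultures, where the construct was not illuminated, none of the 9 genes differed between mCh and GFP cells with limma (adjusted p = 1 for each), where 0.797% of all genes passed (0.453% higher, 0.345% lower in mCh cells). The intervals still allow differences: for NEDD9 the log2 difference was 0.21 ± 0.18 (95% interval -0.19 to 0.60), for CLK1 -0.06 ± 0.26 (-0.62 to 0.50) and for RBM3 -0.04 ± 0.07 (-0.18 to 0.10). None of the 9 reached an unadjusted limma p under 0.05, and edgeR and DESeq2 called none. These fits did not pair mCh and GFP libraries of the same co-culture.

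Levels were also read by depth, mainly in the 12 wild-type libraries. Depth is tied to culture here: all 3 shallow dark wild-type libraries were monocultures, the 3 deep dark ones and the 1 shallow illuminated one were co-cultures, and the 5 deep illuminated ones came from both. Depth and culture therefore cannot be told apart in these values, and the part of depth in the light effects was not tested. The wt monocultures, shallow in the dark and deep under light, also chose 7 of the genes, so these separations are only described. CLK1 read 1433 to 1659 in the shallow dark libraries, 1603 in the shallow illuminated library, 1122 to 1533 in the deep dark and 773 to 965 in the deep illuminated libraries. The shallow and deep dark ranges thus overlapped. In engineered cells CLK1 read 1256 to 1318 in shallow dark and 1058 to 1714 in deep dark libraries. It read 2769 in their shallow illuminated library and 1382 to 1599 in their deep illuminated ones.
In wild-type cells the shallow illuminated library lay within the shallow dark range for CLK1, CLK4 (486 against 421 to 568) and ZNF721 (1688 against 1667 to 1694). It lay below that range for RBM3 (4799 against 6202 to 6924), CIRBP (4838 against 5860 to 6041), LRIG2 (1548 against 1674 to 1728) and NEDD9 (508 against 766 to 818). H6PD lay above it (1590 against 1379 to 1582), and CDC42EP2 lay below it (559 against 636 to 678), both opposite to their wt monoculture difference.
Among deep wild-type libraries the illuminated ones lay below all dark ones for CLK1, CLK4, RBM3, LRIG2, H6PD and NEDD9 and above them for CDC42EP2. They overlapped for CIRBP (4557 to 5876 against 5334 to 5655) and ZNF721 (926 to 1816 against 1689 to 2038).

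**Figure D5:**
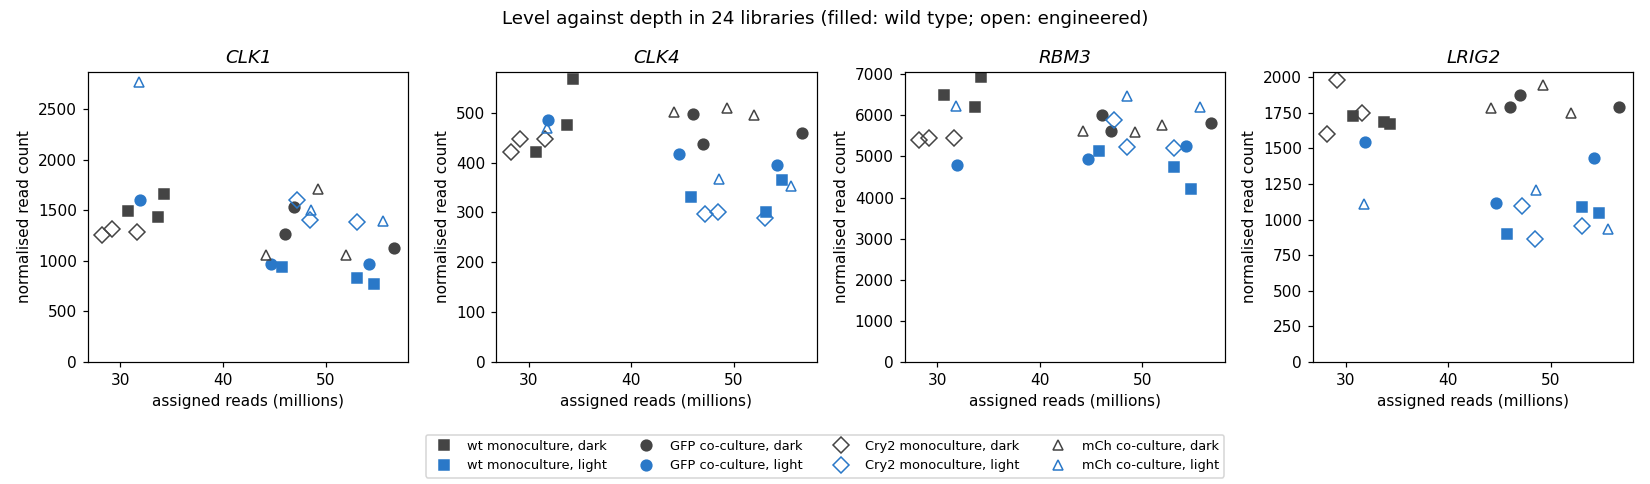
Normalised read count (vertical axis, from 0) of CLK1, CLK4, RBM3 and LRIG2 against assigned reads (horizontal axis), for 24 libraries. Filled symbols are wild-type and open symbols engineered cells, grey dark and blue light; in the wild-type cells the single shallow illuminated library lies among the dark libraries for CLK1 and below all of them for RBM3.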

How the data were processed

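RNA-seq libraries of H9 cells were analysed in 8 groups of 3. FastQC, cutadapt, Bowtie2, STAR, HTSeq and DESeq are listed in the submitters' processing notes; versions are not given in the sources used here. The build is GRCh38 in those notes but hg19 in the header of the authors' sample table, and positions were taken by gene identifier from GENCODE on GRCh38. Values in the gene table the authors deposited are a signal, read counts divided by 1 factor per library: 100.0% became whole within 0.01. From the authors' sample table, GC percent and RNA integrity score were read for the 12 monocultures. The total read counts given there entered no result. In the monoculture labels the genotype tag contradicts the title, and titles were followed. Co-culture columns carry no replicate number and were lettered a to c. The mCh and GFP libraries of a co-culture could therefore not be paired. Spread shared within a co-culture was not removed from their comparisons.

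Members and gene lists were chosen with earlier results of these data known. limma-trend 3.58.1 in R 4.3.3 was fitted on log2(value + 1) for genes of at least 10 in at least 3 libraries, with the 12 monoculture libraries together (19444 genes) and the 12 co-culture libraries together (19436 genes). Benjamini-Hochberg adjusted p under 0.05 was the threshold. Intervals are limma's 95% intervals, values are means ± SD (n = 3), and log2 changes are ± SE on the log2(value + 1) scale. The light contrast in wt monocultures was fitted in the same way, but since it chose the members, no p is given for them. Named genes were the 9 members and up to 4 list members per direction with the largest change among those past the threshold. The 3 genes most like CLK1, RBM3 and CIRBP among genes with a mean of at least 50 were also named. Others were named beside them after their values were seen: CLK2, CLK3, LRIG1, PTK2B and CDC42SE1 in wt cells, MSGN1, HSPA1A and HSPA1B. The fit was tested on simulated data. Alternatives were other pseudocounts, filters and scaling, edgeR 4.0.16, DESeq2 1.42.0, other sample sets, 1 library left out, and a replicate block; leaving out both shallow co-culture light libraries was added after seeing the data.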

Additional observations from a re-analysis of the deposited data

Results flagged for a closer look

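The light effect of 6 genes differed between mCh and GFP cells of the same co-cultures by a limma interaction term. The effect in mCh minus that in GFP cells, on the log2 scale, was 3.00 for NEDD9, 1.60 for H6PD, 0.39 for CIRBP, 0.37 for RBM3, -0.60 for CDC42EP2 and -1.10 for ZNF721.

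In monocultures 4 genes went opposite ways in every library of wt and Cry2 cells, and this difference was not tested because the wt values chose the genes. The log2 light effects were -0.86 in wt and 0.18 in Cry2 cells for CLK1, where the Cry2 effect did not pass the test. They were -0.68 and 1.00 for H6PD, -0.48 and 2.50 for NEDD9, and 0.62 and -0.49 for CDC42EP2. In both cultures depth or marker levels moved with light, and their part was not tested.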

How the results depend on the processing

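All groups had 3 libraries. Of the 9 genes, 7 were past the threshold in Cry2 cells under every alternative, and all 6 called differences between mCh and GFP effects stayed past it, while CLK1 joined them in 1 alternative and LRIG2 in 2. In GFP cells the count of called members was 1, and it was 3 with DESeq2, 2 with only the groups compared, 2 with all 24 libraries, 2 without both shallow co-culture light libraries and 0 to 2 with 1 library left out. The count of genes called in GFP cells was 894, and it was 1451 with DESeq2, 1356 with only the groups compared and 484 to 781 with 1 library left out. For mCh against GFP in the dark it was 155, and it was 291 with DESeq2, 385 with only the groups compared and 93 to 106 with 1 library left out. The log2 change of RBM3 in Cry2 cells, near 0, changed sign to 0.003 with edgeR and 0.012 with DESeq2, and ran from -0.059 to 0.029 with 1 library left out. In dark co-cultures, where nothing was called, leaving out 1 library gave log2 differences of -0.291 to 0.062 for CLK1, -0.039 to 0.039 for LRIG2, -0.066 to 0.12 for H6PD, -0.149 to 0.054 for ZNF721 and -0.035 to 0.078 for CDC42EP2. The cause was not tested. Replicate numbers did not pair the monoculture samples (correlations of deviations 0.012 to 0.058 in Cry2 cells), and with the replicate block 11296 genes were called in Cry2 cells against 11360, with 7 members in both. In mCh cells CLK4 lost its call in 6 of 16 alternatives and CIRBP in 1, while CLK1 gained one in 4 and RBM3 in 2. In GFP cells NEDD9 lost its call in 5, while LRIG2 gained one in 5 and RBM3 in 1.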
